A study of Mus musculus with 20 samples.

Results

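The 8 genes described here encode the cyclins and cyclin-dependent kinases of G1, the cell cycle phase before DNA replication. They are the 3 D-type cyclins Ccnd1, Ccnd2 and Ccnd3, the 2 E-type cyclins Ccne1 and Ccne2, and the kinases Cdk4, Cdk6 and Cdk2. They were taken by gene symbol, with no use of their values, and all 8 were found among 27998 genes of the single-cell tables and among 24062 genes of the bulk RNA-seq table. The study profiled neural stem cells (NSCs) of the mouse dentate gyrus (DG) during early ageing. It tested what loss of the histone methyltransferase Setd8 does to NSCs, both in culture and by deletion in mice. Only RNA-seq of the cultures enters here. Single-cell RNA-seq (scRNA-seq) and single-cell ATAC-seq (scATAC-seq, which counts cuts of a transposase in open chromatin) were each done on EGFP-positive cells sorted from the DG of Nestin-EGFP mice at postnatal day 5 (P5), 12 weeks (12w) and 24 weeks (24w). These mice carry a green reporter under control of the Nestin gene on a C57BL/6 background. There was 1 library per age and assay, so a difference between ages has no replicate error and was not tested. Intervals in brackets are exact 95% intervals that cover counting error only. The sort also holds cells other than NSCs, since the reporter is active in vascular cells. Bulk RNA-seq was done on cultured mouse NSCs infected with a lentivirus that carries a control shRNA or an shRNA against Setd8, selected with puromycin and collected 3 days after infection. All bulk libraries share the vector and the selection. The labels call these cells hippocampal, whereas the study's methods describe a line from embryonic cortex passaged many times.

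Cells pass from G1 into S phase when D-type cyclins bind Cdk4 or Cdk6 and the resulting kinases phosphorylate the retinoblastoma protein. This frees E2F transcription factors, which switch on genes of DNA replication and the E-type cyclins. Cyclin E then binds Cdk2, the kinase that drives entry into S phase. In the DG most NSCs are quiescent and divide rarely, while the neural progenitor cells (NPCs) they give rise to divide rapidly before they become immature neurons (IMN), and Ccnd2 is known as the D-type cyclin on which adult hippocampal neurogenesis depends.

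Start-site sequence was available for 5 of the 8 genes, Ccnd3, Ccne1, Cdk2, Cdk4 and Cdk6, from RefSeq on the GRCm38.p6 build. Each window holds 300 bases, 250 before and 50 after a transcription start. The windows of Cdk4, Cdk6, Cdk2 and Ccne1 are shown as those of the 3 kinases and of the E-type cyclin with an entry, which the results below turn on. Letters in capitals mark the E-box CACGTG, bound by Myc-type factors, and the E2F-type motifs TTTGGCGC, TTTGCCGC, TTTCGCGC and TTTCCCGC, each searched on both strands. The Cdk4 window is chr10:127063285-127063584 (+ strand), that of Cdk6 is chr5:3343643-3343942 (+ strand), that of Cdk2 is chr10:128705002-128705301 (- strand) and that of Ccne1 is chr7:38107441-38107740 (- strand).
Cdk4: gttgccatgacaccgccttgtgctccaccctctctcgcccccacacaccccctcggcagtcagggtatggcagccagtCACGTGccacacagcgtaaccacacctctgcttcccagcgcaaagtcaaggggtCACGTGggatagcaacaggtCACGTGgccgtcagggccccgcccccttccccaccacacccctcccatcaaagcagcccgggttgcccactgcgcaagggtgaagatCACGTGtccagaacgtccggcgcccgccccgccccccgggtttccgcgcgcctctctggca
Cdk6: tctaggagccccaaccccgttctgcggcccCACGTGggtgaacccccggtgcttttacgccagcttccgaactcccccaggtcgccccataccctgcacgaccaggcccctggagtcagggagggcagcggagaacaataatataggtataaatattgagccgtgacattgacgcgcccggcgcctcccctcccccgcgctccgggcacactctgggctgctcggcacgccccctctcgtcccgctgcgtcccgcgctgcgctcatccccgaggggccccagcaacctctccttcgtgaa
Cdk2: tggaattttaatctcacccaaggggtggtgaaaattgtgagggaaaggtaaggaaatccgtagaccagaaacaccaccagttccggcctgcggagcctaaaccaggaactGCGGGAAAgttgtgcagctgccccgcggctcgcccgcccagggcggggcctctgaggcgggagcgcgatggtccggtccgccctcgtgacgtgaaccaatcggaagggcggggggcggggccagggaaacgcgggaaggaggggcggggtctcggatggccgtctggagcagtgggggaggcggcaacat
Ccne1: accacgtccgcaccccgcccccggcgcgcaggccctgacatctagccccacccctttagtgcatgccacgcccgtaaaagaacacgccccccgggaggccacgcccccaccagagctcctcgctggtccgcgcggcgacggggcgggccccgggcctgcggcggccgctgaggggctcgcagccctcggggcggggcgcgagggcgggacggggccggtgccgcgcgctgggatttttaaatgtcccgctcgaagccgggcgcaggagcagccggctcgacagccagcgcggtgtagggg
The Cdk4 window holds 4 E-boxes, which begin 172, 118, 98 and 11 bases before the start. Among all 32851 RefSeq windows of this length in the mouse table, 7.15% hold at least 1 E-box and 8 windows, or 0.0244%, hold at least 4. The Cdk6 window holds 1 E-box, 220 bases before the start. An E2F-type motif was found once, 140 bases before the start of Cdk2, and 2.26% of all windows hold at least 1. The Ccne1 window and both Ccnd3 windows hold neither motif. The shorter motif CCAAT, also searched on both strands and not capitalised, occurs once in the Cdk2 window and once in 1 of the Ccnd3 windows, and in 37.4% of all windows. These are matches of letters and say nothing of whether a factor binds.

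After filtering and removal of doublets, 12752 cells at P5, then 5271 at 12w and 2794 at 24w were kept, with medians of 4261, 2271 and 2178 unique molecular identifiers (UMIs, each 1 captured RNA molecule) per cell. Between 88 and 160 cells of a library had a barcode that also occurs in another library. The libraries differ in sex: Xist without Y-linked UMIs was found in 20.1% of cells at P5, then 92.4% at 12w and 0.0358% at 24w, and Y-linked UMIs without Xist in 31.8%, 0% and 29.5%, so age and sex cannot be told apart in a comparison of 12w with 24w and differ together from the mixed P5 library. Cells were clustered without the 8 genes and named from marker lists, and a name with "-like" rests on those markers. In the order P5, 12w and 24w there were 3609, 326 and 116 astrocyte-like (AS-like) cells, 1375, 383 and 95 of the NSC-like class, and 500, 70 and 17 of the NPC-like class. Earlier immature neurons, IMN1-like, numbered 324, 147 and 19, and later ones, IMN2-like, 1306, 610 and 89. A further cycling cluster of 645, 160 and 26 cells was left unnamed because its 10 leading genes held no NPC marker and 1 marker of IMN1, Neurog2. It is called the S-phase cluster here after leading genes such as Rrm2, Mcm6 and Pcna, which act in DNA replication, while the NPC-like cells were led by Ube2c, Cdc20 and Cenpf, genes of mitosis. Free RNA from lysed cells, estimated from empty droplets and vascular genes, made up 7.13 to 11.6% of the UMIs of neural classes at 12w and 9.08 to 24.2% at 24w. The P5 library lists no empty droplets and could not be examined in this way.

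Among the D-type cyclins, Ccnd2 had the highest UMI level at P5 in all 6 neurogenic and astrocytic classes. Its level differed in opposite directions between ages in NSC-like cells as pooled and in cycling cells. Reads come from the 3′ end of each transcript, so UMIs do not scale with its length. Levels are counts-per-million (CPM), the UMIs of a gene relative to all UMIs of the class, pooled over cells. In NSC-like cells Ccnd2 stood at 420 CPM (404 to 437) at P5, then 269 (242 to 299) at 12w, followed by 174 (132 to 224) at 24w. In the S-phase cluster it stood at 1431 CPM (1397 to 1465), 2413 (2322 to 2506) and 3071 (2834 to 3323). The ratio to P5 was thus 0.641 (0.572 to 0.717) at 12w, followed by 0.413 (0.313 to 0.536) at 24w in NSC-like cells, against 1.69 (1.61 to 1.76) and 2.15 (1.97 to 2.33) in the S-phase cluster. The 3 intervals did not overlap in either class as pooled. Within NSC-like cells the order of ages differed between clusters, which were looked at after seeing the data. In the largest cluster, led by Id4, Fos and Ass1, Ccnd2 stood at 323 CPM (303 to 344), 151 (127 to 179) and 154 (111 to 207), so its 12w and 24w intervals overlapped. This cluster held no NSC marker among its 10 leading genes, and the next held 4. In the next, led by 1500015O10Rik, Gdf10 and Frzb, Ccnd2 stood at 532 (502 to 563), 520 (453 to 594) and 307 (172 to 506), the last from 15 UMIs. Its P5 and 12w intervals there overlapped. The second of these supplied 475 of 1375 NSC-like cells at P5, then 101 of 383 at 12w and 11 of 95 at 24w, so the pooled values also carry the change in make-up. NPC-like cells held 1133, 1777 and 1475 CPM of Ccnd2, higher than P5 at both later ages. In IMN1-like cells the values were 681, 976 and 829 CPM, and in IMN2-like cells they were 178, 186 and 291 CPM, so of these 4 classes the S-phase cluster and the IMN2-like cells had their highest level at 24w and the others at 12w. In IMN1-like cells the adult levels did not differ beyond counting error, at a ratio of 24w to 12w of 0.849 (0.681 to 1.05). In NPC-like cells the order depended on the clustering. The log2 ratio to P5 was 0.65 at 12w and 0.38 at 24w, and 0.79 and 0.96 at a coarser resolution of 0.4. The IMN2-like clusters differed in the age of their highest level. The largest, led by Calb2, Tubb3 and Stmn2, held 157, 227 and 349 CPM of Ccnd2, whereas one led by Calb2, Stmn4 and Neurod1 held 157, 101 and 126 CPM, a ratio of 0.641 (0.482 to 0.847) at 12w. Of the 6 classes, AS-like cells had the ratios to P5 farthest from 1, 0.158 at 12w and 0.157 at 24w, with 682 CPM (670 to 694) at P5 against 108 (88.9 to 130) at 12w, followed by 107 (74.4 to 148) at 24w. The make-up of this class differed between libraries as well. A cluster led by Serpinf1, Aqp4 and Pla2g3, with 1069 CPM of Ccnd2 at P5, supplied 896 of 3609 cells at P5, then 19 of 326 at 12w and 6 of 116 at 24w. In the largest AS-like cluster alone, led by Slc7a10, Cxcl14 and Slc6a11 and looked at after seeing the data, Ccnd2 stood at 496 CPM (482 to 510), 79.2 (58.9 to 104) and 82.9 (48.3 to 133), with ratios to P5 of 0.16 (0.119 to 0.21) and 0.167 (0.0974 to 0.268). The ratios were nearer 1 in a cluster led by Notch2, Sfxn5 and Spry2, at 0.335 (0.248 to 0.444) and 0.316 (0.172 to 0.535). They were 0.224 (0.0723 to 0.526) and 0.361 (0.0742 to 1.06) in one led by Aldoc, Cst3 and Lxn. In the cluster led by Serpinf1 they were 0.0492 (0.0101 to 0.144) and 0.0392 (0.000993 to 0.219). Single clusters may still differ in make-up between ages. A finer clustering had an AS-like cluster of 1014, 143 and 51 cells and another of 976, 35 and 18. Predicted free RNA amounted to 24.3% and 18.9% of the adult Ccnd2 levels in all AS-like cells at 12w and 24w, and to no more than 1.05% of the Ccnd2 level in the S-phase cluster. A small group of GABAergic neuron-like cells, 24 cells at P5 and 71 at 12w, carried 3672 and 2466 CPM of Ccnd2.

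Ccnd1, the D-type cyclin best known as a sensor of growth factor signals, was lower in adult NSC-like cells. Its level there was 79.9 CPM (72.7 to 87.5) at P5, then 21.8 (14.6 to 31.3) at 12w, followed by 20.9 (8.42 to 43.1) at 24w, from 457, 29 and 7 UMIs. Both adult intervals lay below that of P5, with ratios of 0.273 (0.18 to 0.397) and 0.262 (0.105 to 0.545). The share of NSC-like cells with a Ccnd1 UMI, after each cell was thinned to 1000 UMIs, was 7.2% (5.89 to 8.7) at P5, then 1.83% (0.738 to 3.73) at 12w, followed by 3.16% (0.656 to 8.95) at 24w, and 23.6%, 6.53% and 7.37% unthinned. Thinned shares at 24w rest on 95 cells and their interval includes the P5 value. NSC-like cells came from 4 clusters, of which the 2 largest were looked at alone. In the largest it had 36.7, 7.9 and 10.7 CPM in the order of age, and in the next 141, 50.1 and 61.4 CPM. The 12w interval lay below that of P5 in both clusters, while the 24w values rest on 3 UMIs each and their intervals overlapped that of P5. In the largest cluster the 24w interval, 2.21 to 31.3, still lay below the P5 value of 36.7 CPM. In the next it was 12.7 to 179 and included the P5 value of 141 CPM. The largest cluster supplied 700 of 1375 NSC-like cells at P5, then 274 of 383 at 12w and 81 of 95 at 24w, so the make-up of the class differed between libraries as well. A finer clustering had an NSC-like cluster of 212, 250 and 79 cells and another of 486, 22 and 3. Make-up may therefore also differ between ages inside a single cluster. Against P5 cells of like sex, an alternative chosen after seeing the data, the log2 ratio of Ccnd1 was -1.77 at 12w and -1.78 at 24w. The largest cluster held no NSC marker among its 10 leading genes, and the next held 4. Markers of other cells also moved with age in NSC-like cells. The 10 astrocyte markers summed to 1187 CPM at P5, then 1528 at 12w and 1974 at 24w with none at 0. The 10 NSC markers summed to 1689, 4145 and 2941 CPM. The 6 pericyte markers, of a vascular cell type, summed to 48.9 CPM at P5, then 1018 at 12w and 1876 at 24w with none at 0. The 8 NPC markers summed to 434, 134 and 194 CPM, with 3 of them at 0 at 24w. The part of any of these lists in the differences of Ccnd1, Ccnd2 and Cdk4 in this class was not tested. After subtraction of predicted free RNA the log2 ratio of Ccnd1 was -1.89 at 12w and -1.93 at 24w, against -1.85 and -1.83 as counted.

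In the other neurogenic classes Ccnd1 was also below its P5 level. The S-phase cluster held 96.7 CPM at P5, then 56 at 12w and 59.4 at 24w, and the NPC-like cells 63.1, 35.8 and 32.1. In both, only the 12w interval excluded equality with P5, at ratios of 0.58 (0.437 to 0.757) and 0.567 (0.336 to 0.903). In IMN2-like cells 108 UMIs at P5 gave 21.7 CPM (17.8 to 26.2), 4 UMIs at 12w gave 1.73 (0.471 to 4.43), and none was counted at 24w, which allows up to 7.93 CPM at 3 UMIs. The 12w value is no higher than free RNA alone would give, since the prediction was 125% of it. The highest Ccnd1 levels in neural cells were in oligodendrocyte precursor-like (OPC-like) cells, with 262 CPM (248 to 277) at P5, which is 2.71 times (2.44 to 3.02) the S-phase cluster. The 32 OPC-like cells at 12w stood at 660 CPM (500 to 854).

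Ccnd3, the third D-type cyclin and one widely used by differentiating cells, varied least between classes. Over 7 neural classes at P5 its level ranged from 31.8 CPM in IMN1-like cells to 103 CPM in OPC-like cells, a 3.23-fold range, against 13.5-fold for Ccnd1 and 8.04-fold for Ccnd2. NSC-like cells held 56.4 CPM (50.5 to 62.9) at P5, then 76.5 (62.4 to 92.9) at 12w, followed by 56.8 (34.2 to 88.8) at 24w. AS-like cells held 52, 71.4 and 76.3 CPM. The 12w level exceeded that of P5 in both classes, with ratios of 1.36 (1.07 to 1.7) and 1.37 (1.07 to 1.74), and both 24w intervals included equality. In NPC-like cells the 12w level was below P5, at 20.7 CPM (10.3 to 37.1) against 52.6 (46 to 59.9), and predicted free RNA was 37.8% of the lower value. This difference depended on the clustering: the log2 ratio of 12w to P5 was -1.28, and -0.21 at a coarser resolution of 0.4 that puts more cells in the NPC-like class.

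**Figure D1:**
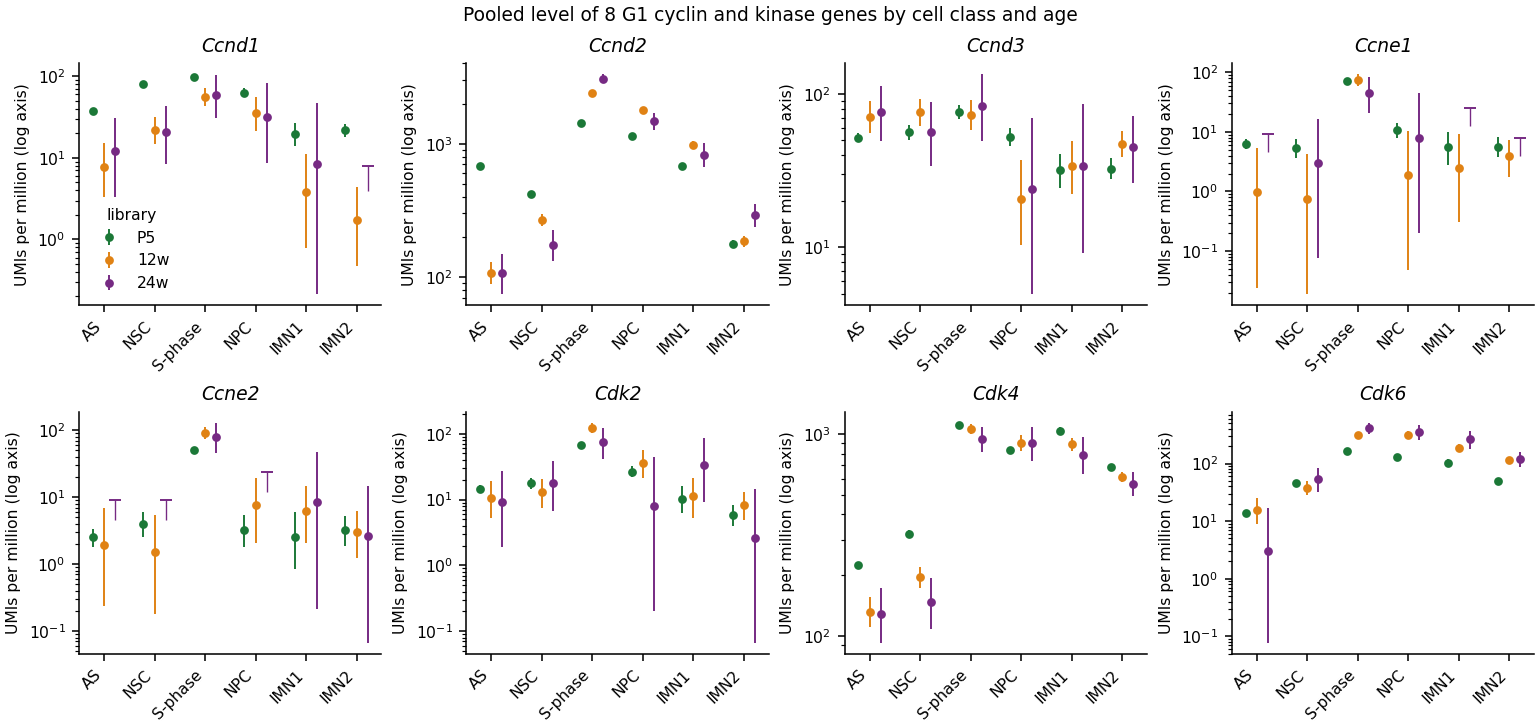
Pooled UMI levels in CPM (log axis) of the 8 genes in 6 cell classes, with 1 point per library (P5, 12w and 24w), bars for exact 95% counting intervals and a short dash at the level of 3 UMIs where no UMI was counted. The S-phase cluster stands above the NSC-like cells at P5 for each of the 8 genes, most clearly for Ccne1 (71.8 against 5.42) and Ccne2 (50 against 4.02).

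The shares of the 3 D-type cyclins among their summed UMIs followed from these levels. Ccnd2 made up 75.5% (74 to 77) of D-cyclin UMIs in NSC-like cells at P5, then 73.3% (69.1 to 77.1) at 12w, followed by 69% (58 to 78.7) at 24w, with overlapping intervals. The Ccnd1 share there was 14.3% (13.1 to 15.6), 5.92% (4 to 8.39) and 8.33% (3.42 to 16.4), and the Ccnd3 share 10.1% (9.11 to 11.2), 20.8% (17.3 to 24.7) and 22.6% (14.2 to 33). Ccnd3 thus took the larger of the minor shares in adult NSC-like cells as pooled, and Ccnd1 at P5. These shares also carry the change in make-up, since in the largest NSC-like cluster Ccnd3 was above Ccnd1 at P5 already, at 62.7 against 36.7 CPM, and in the next it was below, at 45.7 against 141 CPM. In the S-phase cluster Ccnd2 made up 89.2%, 94.9% and 95.5%, and in NPC-like cells 90.7%, 96.9% and 96.3%, so the lead of Ccnd2 over the other D-type cyclins was larger in adult cycling cells. AS-like cells differed most between ages among these classes. Their Ccnd2 share was 88.4% (87.9 to 89) at P5, then 57.7% (50.4 to 64.8) at 12w, followed by 54.7% (41.7 to 67.2) at 24w, and their Ccnd3 share 6.74%, 38.1% and 39.1%.

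The E-type cyclins were highest in cycling cells. In the S-phase cluster Ccne1 stood at 71.8 CPM (64.4 to 79.8) at P5, then 75 (59.8 to 93) at 12w, followed by 44.6 (20.4 to 84.6) at 24w. Ccne2 stood at 50 CPM (43.9 to 56.8), 92.2 (75.2 to 112) and 79.3 (45.3 to 129). The Ccne1 intervals of the 3 ages overlapped, whereas the 12w level of Ccne2 was 1.84 times (1.45 to 2.33) that of P5. Other cycling cells at P5 also held them. The 444 cycling OPC-like cells had 43 CPM (34.1 to 53.5) of Ccne1 and 23.7 (17.2 to 31.8) of Ccne2, and the 140 cycling pericyte-like cells had 34.7 (24.5 to 47.6) and 27.4 (18.5 to 39.1). An unnamed cluster of 47 cells, found at P5 alone and led by Dtl, Hells and Dna2, had 45.8 CPM (25 to 76.9) of Ccne1 and 62.2 (37.4 to 97.1) of Ccne2, with intervals that overlapped those of the S-phase cluster. In the 7 neural classes compared (AS-like, NSC-like, NPC-like, IMN1-like, IMN2-like, non-cycling OPC-like and the S-phase cluster) the level next to the S-phase cluster at P5 was that of OPC-like cells for both genes, 5.41-fold (4.15 to 7.16) lower for Ccne1 and 9.22-fold (6.18 to 14.3) lower for Ccne2. NPC-like cells, which lead with genes of mitosis, held 10.7 CPM of Ccne1 and 3.26 CPM of Ccne2 at P5, close to the range of non-cycling classes. The Ccne1 share of Ccne1 and Ccne2 UMIs in the S-phase cluster was 58.9% (54.8 to 63) at P5, then 44.9% (37.6 to 52.3) at 12w, followed by 36% (18 to 57.5) at 24w.

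Outside the cycling cells few UMIs of E-type cyclins were counted. The 24 GABAergic neuron-like cells at P5 had 52 CPM (19.1 to 113) of Ccne1 from 6 UMIs, and the 18 microglia-like cells had 38.5 CPM (10.5 to 98.5) of Ccne2 from 4 UMIs, with intervals that overlapped those of cycling cells. NSC-like cells held 31, 1 and 1 UMIs of Ccne1 and 23, 2 and 0 UMIs of Ccne2 at P5, 12w and 24w. For Ccne1 the 12w ratio to P5 was 0.139 (0.0034 to 0.831), and free RNA alone would give 95.7% of the 12w level. For Ccne2 the ratio was 0.373 (0.0427 to 1.51) at 12w, and the absence of UMIs at 24w allows up to 8.97 CPM at 3 UMIs, above the 4.02 CPM of P5. A difference with age in Ccne2 was therefore not detectable at this depth in NSC-like cells. Thinned to 1000 UMIs, 7.13% (5.27 to 9.4) of S-phase cells and 0.873% (0.452 to 1.52) of NSC-like cells at P5 had a Ccne1 UMI, and 36% and 2.18% did unthinned, at median depths of 7196 and 4032 UMIs.

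Cdk4, the kinase partner of D-type cyclins used in most dividing cells, was the more abundant of the D-cyclin kinases by UMIs in every class above. Its level in NSC-like cells was 321 CPM (307 to 336) at P5, then 195 (172 to 220) at 12w, followed by 147 (108 to 194) at 24w, from which free RNA would account for 21.7% and 23.5% of the adult values. The ratios to P5 were 0.608 (0.531 to 0.692) and 0.456 (0.336 to 0.606). AS-like cells held 223, 131 and 128 CPM, with ratios of 0.589 (0.492 to 0.699) and 0.575 (0.414 to 0.779). The adult level was thus below P5 in both classes by more than counting error. The S-phase cluster held 1107, 1057 and 941 CPM and the NPC-like cells 832, 902 and 898 CPM. Every one of the 3 intervals in NPC-like cells overlapped the others, and the S-phase cluster was 0.85 times (0.732 to 0.983) its P5 level at 24w. Cdk4 was also high in immature neurons, with 1040, 893 and 787 CPM in IMN1-like and 685, 612 and 568 CPM in IMN2-like cells. The ratios to P5 were 0.859 (0.788 to 0.936) and 0.757 (0.608 to 0.932) in IMN1-like cells. In IMN2-like cells they were 0.894 (0.84 to 0.951) and 0.83 (0.72 to 0.953), so all adult levels were below P5 by more than counting error. At P5 the S-phase cluster was only 1.06 times (1.01 to 1.12) the IMN1-like cells.

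Cdk6, the other D-cyclin kinase, was higher in adult than in P5 cycling cells and immature neurons. NPC-like cells held 128 CPM (118 to 140) at P5, then 311 (265 to 362) at 12w, followed by 353 (256 to 474) at 24w. The S-phase cluster held 165 (154 to 177), 308 (276 to 343) and 411 CPM (327 to 510). IMN1-like cells held 103, 187 and 262 CPM, and IMN2-like cells 50.2, 114 and 119 CPM. In these 4 classes both adult intervals lay above that of P5, with ratios to P5 from 1.82 (1.46 to 2.26, IMN1-like) to 2.42 (2.02 to 2.88, NPC-like) at 12w and from 2.37 (1.68 to 3.26, IMN2-like) to 2.75 (1.97 to 3.74, NPC-like) at 24w. Predicted free RNA was at most 4.81% of any adult level in them. The summed level of the 10 astrocyte markers was lower in adults in all 4. It was 809, 75.3 and 64.1 CPM in NPC-like cells and 424, 158 and 149 CPM in the S-phase cluster. AS-like cells at P5 held 13.9 CPM of Cdk6. The part of this change in the Cdk6 differences, and in those of Ccnd2 in the same classes, was not tested. The make-up of the IMN2-like class differed between libraries, and the cluster led by Sema3c, Islr2 and Igfbpl1 supplied 468 of 1306 cells at P5, then 57 of 610 at 12w and 16 of 89 at 24w. In its largest cluster alone, looked at after seeing the data, Cdk6 stood at 48, 132 and 115 CPM, with ratios to P5 of 2.76 (2.19 to 3.48) and 2.39 (1.53 to 3.62). In NSC-like cells Cdk6 stood at 46 CPM (40.6 to 51.9), 38.3 (28.5 to 50.3) and 53.8 (31.9 to 85.1), with overlapping intervals. This value depended on which NSC-like clusters were pooled. In the largest cluster alone, an alternative chosen after seeing the data, Cdk6 stood at 17.9 CPM (13.4 to 23.4) at P5. It stood there at 31.6 (21 to 45.7) at 12w and 39.3 (19.6 to 70.3) at 24w, a log2 ratio of 0.84 and 1.19. Both adult intervals lay above the P5 value of 17.9 CPM but overlapped the P5 interval. Such overlap does not show that levels were alike, and intervals of the ratio were not computed for single NSC-like clusters. In the next cluster Cdk6 was lower at 12w, at 52.5 CPM (32.9 to 79.4) against 75.2 (64.3 to 87.5) at P5, with overlapping intervals. The 24w interval of that cluster, 33.2 to 239 from 5 UMIs, included its P5 value. The log2 ratio in NPC-like cells against P5 cells of like sex was 1.2 at 12w and 1.66 at 24w.

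The Cdk6 share of Cdk4 and Cdk6 UMIs was larger in adult than in P5 cells in several classes. It was 13% (12.2 to 13.9) at P5, then 22.6% (20.5 to 24.8) at 12w, followed by 30.4% (25 to 36.2) at 24w in the S-phase cluster. In NPC-like cells it was 13.4%, 25.6% and 28.2%, in IMN1-like cells 9.02%, 17.3% and 25%, in IMN2-like cells 6.83%, 15.7% and 17.3%, and in NSC-like cells 12.5% (11.1 to 14), 16.4% (12.5 to 21) and 26.9% (16.8 to 39.1). Both adult intervals lay above P5 in the first 4 of these classes, and the 24w interval did in NSC-like cells, where the Cdk6 intervals overlapped and Cdk4 was lower in adults. Among vascular cells, the pericyte-like stood at 27.7%, 25.1% and 24.8%, and the smooth muscle-like at 20.6% (15.7 to 26.1), 34.3% (30.1 to 38.7) and 38.3% (32.2 to 44.8), with both adult intervals above P5. AS-like cells showed no such order, with 5.88%, 10.5% and 2.33%.

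**Figure D2:**
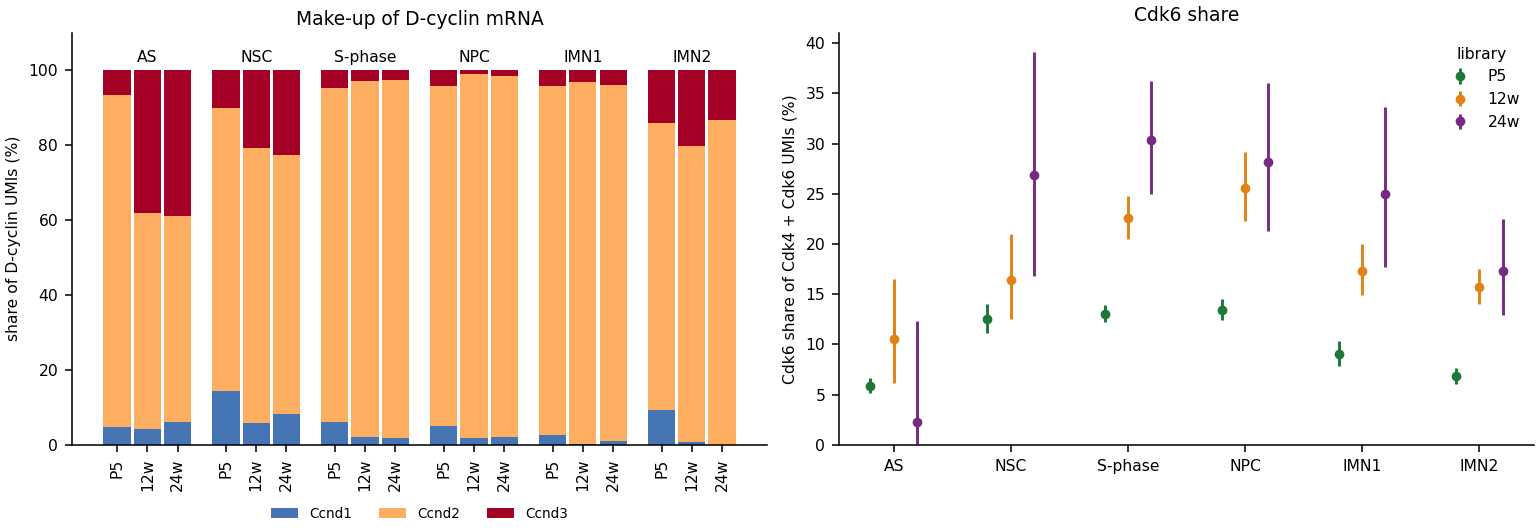
Left, shares (%) of Ccnd1, Ccnd2 and Ccnd3 among their summed UMIs in 6 cell classes and 3 libraries. Right, the Cdk6 share (%) of Cdk4 and Cdk6 UMIs with exact 95% binomial intervals, which lies above P5 at both adult ages in the S-phase cluster, NPC-like, IMN1-like and IMN2-like cells.

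Cdk2, the kinase partner of cyclin E, was highest in the S-phase cluster at every age, with 67 CPM (59.8 to 74.7) at P5, then 124 (104 to 146) at 12w, followed by 74.3 (41.6 to 123) at 24w. The 12w level was 1.85 times (1.5 to 2.27) that of P5. NPC-like cells held 26.5, 35.8 and 8.02 CPM, the last from 1 UMI. NSC-like cells held 17.6 CPM (14.4 to 21.4), 12.8 (7.43 to 20.4) and 17.9 (6.59 to 39.1), with no difference between ages beyond counting error. Of the 7 neural classes IMN2-like cells had the lowest level at P5, 5.83 CPM (3.9 to 8.37), which was 11.5-fold below the S-phase cluster. The 137 oligodendrocyte-like cells held 5.08 CPM (1.65 to 11.9).

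Across the same 7 neural classes at P5, 6 of the 8 genes were highest in the S-phase cluster, and Ccnd1 and Ccnd3 were highest in OPC-like cells. Of all genes with at least 10 UMIs over the classes ranked, 12.5% at P5, then 15.2% at 12w and 16.3% at 24w were highest in the S-phase cluster. At 12w, over 6 classes without the few OPC-like cells, 6 of 8 were highest in the S-phase cluster, with Ccnd3 highest in NSC-like and Cdk6 in NPC-like cells. Those 2 did not differ from the S-phase cluster beyond counting error, at ratios of 1.05 (0.773 to 1.42) and 1.01 (0.832 to 1.22), nor did Ccnd1 in the S-phase cluster exceed NPC-like cells beyond it, at 1.57 (0.924 to 2.77). All 8 were highest in the S-phase cluster at 24w, over the same 6 classes, but of the ratios to the next class only those of Ccnd2, 2.08 (1.76 to 2.47), and Ccne2, 9.37 (1.46 to 393), had intervals above 1.

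A rule of size set these age differences beside all genes. A gene met it if both adult levels were at least 2-fold above P5, or both at least 2-fold below it, with 0.5 UMIs added for the ratio and at least 20 UMIs on the higher side. In NSC-like cells 2 of the 8 genes were lower by this rule, Ccnd1 and Ccne2, and none was higher. Among all 11158 genes compared there, 5.44% were lower and 7.06% higher. Ccne2 met the rule on 23, 2 and 0 UMIs, for which the difference was not detectable, as given above. In NPC-like cells 1 of 8 was higher, Cdk6, where 3.20% of all genes were higher and 4.95% lower. IMN2-like cells had Cdk6 higher, against a background of 5.93%, and Ccnd1 lower, against 3.81%. AS-like cells had 3 genes lower, Ccnd1, Ccnd2 and Ccne1, against 6.16% of all genes, and none higher, against 7.17%. The Ccne1 call rested on 109, 1 and 0 UMIs, and 3 UMIs at 24w correspond to 9.15 CPM, above the P5 level of 6.24. None of the 8 met the rule in the S-phase cluster, where 4.41% of genes were higher and 3.01% lower, or in IMN1-like cells, where the shares were 5.28% and 2.51%. In vascular cells of the sort 2 of the 8 genes were lower in each of 2 classes. In pericyte-like cells these were Ccnd1, with 72.7, 7.95 and 10.8 CPM, and Ccnd2, with 210, 64.2 and 71.8 CPM, where 7.22% of all genes were lower and 15.2% higher. In vascular smooth muscle-like cells they were Ccnd2 and Cdk4, where 4.16% were lower and 17.3% higher, with ratios to P5 of 0.32 (0.285 to 0.36) and 0.422 (0.372 to 0.479) for Ccnd2 and of 0.457 (0.381 to 0.548) and 0.384 (0.308 to 0.478) for Cdk4. Both classes differed in make-up between libraries. For example, the pericyte-like cluster led by Kcnj8, Vtn and Art3 supplied 346 of 380 cells at P5, then 958 of 2430 at 12w and 684 of 1737 at 24w. Levels were not compared within these clusters. The median log2 ratio of all genes was 0.04 at 12w and 0.12 at 24w in NSC-like cells and 0.06 and 0.17 in NPC-like cells.

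Other genes of the G1 pathway were compared by the same rule, from a list of 36 that holds inhibitors, pocket proteins, E2F factors, activators, turnover factors and later cyclins. In NSC-like cells 30 had enough UMIs, 6 were lower, where 5.44% of all genes were, and none was higher. Those lower included E2f1, a factor freed when the retinoblastoma protein is phosphorylated, with 21.1, 8.25 and 2.99 CPM at P5, 12w and 24w. Skp2, which directs breakdown of the kinase inhibitor p27, stood at 21.3, 8.25 and 5.98 CPM. Cdk1, the mitotic kinase, stood at 17.6, 5.25 and 2.99 CPM, and the adult values of these 3 genes rest on 11 UMIs or fewer per library. In NPC-like cells 2 of 31 were higher, against 3.20% of all genes, and none was lower. They were Mycn, an activator of D-type cyclin transcription, with 98.9, 232 and 297 CPM, and Cdkn1b, which encodes p27, with 45.4, 99.8 and 168 CPM. None of 33 met the rule in the S-phase cluster. In IMN2-like cells 3 of 28 were higher and 3 lower, against 5.93% and 3.81% of all genes. Those higher were all kinase inhibitors, of which Cdkn2c had 59.5, 141 and 161 CPM and Cdkn1b 39.6, 109 and 130 CPM. Those lower were Ccna2, Ccnb1 and Cdk1, genes of S phase and mitosis, of which Cdk1 had 16.3, 4.32 and 2.64 CPM. In IMN1-like cells 2 of 25 were higher, the kinase inhibitors Cdkn2c and Cdkn1c, and 4 were lower, among them Cks1b with 164, 72.9 and 59.2 CPM, against 5.28% and 2.51% of all genes. In AS-like cells 3 of 32 were lower, Myc, Skp2 and Ccna2, on 4 UMIs or fewer per adult library and against 6.16% of all genes, and none was higher. In pericyte-like cells 7 of 30 were lower and 1 was higher, against 7.22% and 15.2% of all genes. In vascular smooth muscle-like cells 5 of 25 were lower and 2 were higher, against 4.16% and 17.3%. With lists this short, 1 or 2 genes are close to these shares.

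The likeness of each gene's pattern to that of other genes was measured as Pearson's r of log2(CPM + 10) over 47 groups of class and age, which share libraries, among 12980 genes. It is a description with no test. Ccne1 was most like Hells (0.89), Ung (0.88) and Chaf1b (0.88), and Ccne2 like Dscc1 (0.90), Aunip (0.89) and Cdc6 (0.89). Cdk2 was most like Tcf19 (0.82), Rbl1 (0.80) and Aunip (0.80). Cdk4 was most like the RNA-binding protein genes Hnrnpa1 (0.95) and Hnrnpab (0.93) and like Set (0.95), and Cdk6 like Nop58 (0.86), Ddx39b (0.83) and Insm1 (0.81). For the D-type cyclins the leading genes were Cdca7 (0.79), H1fx (0.78) and H2afv (0.77) for Ccnd2, Crtap (0.84), Tjp1 (0.84) and Luzp1 (0.81) for Ccnd3, and Nkd1 (0.67), Uqcrb (0.65) and Rpl13 (0.65) for Ccnd1. Within the 8, the pair most alike was Ccne1 with Ccne2 (0.83) and the pair least alike was Ccnd3 with Cdk4 (-0.45).

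Open chromatin at the start sites was read from the scATAC-seq libraries, in which 8788, 12638 and 6041 cells at P5, 12w and 24w were kept and given the scRNA-seq classes of their own age by label transfer. Peaks at the 8 start sites were called in each library. Peak lengths differed between libraries, for example 8775, 8933 and 6807 bp for Ccnd1, so classes were compared within a library. Values are counts-per-million (CPM), the counts in the peak relative to all counts in peaks of the label. The number of labelled cells was 378, 458 and 162 for NSC-like, 1645, 258 and 63 for AS-like and 150, 114 and 33 for the S-phase label.

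At the Ccnd1 peak, chr7:144935148-144943922 (mm10) at P5, NSC-like cells stood at 108 CPM and AS-like cells at 96.9, a ratio of 1.11 (1.04 to 1.18). At 12w the values were 74.5 and 33.6, a ratio of 2.22 (1.9 to 2.6), and at 24w they were 63.9 and 44.7, a ratio of 1.43 (1.13 to 1.83). NSC-like cells were thus above AS-like cells at all 3 ages. OPC-like cells had the highest value of the neural labels at P5, 134 CPM, as they did for Ccnd1 RNA. At the Ccnd2 peak NSC-like cells were below AS-like cells at P5 and above them later, with ratios of 0.75 (0.706 to 0.796) at P5, then 1.18 (1.07 to 1.32) at 12w, followed by 1.27 (1.08 to 1.5) at 24w. The AS-like value at P5, 139 CPM, was the highest of the neural labels. At the principal start of Ccnd3 the P5 peak held 6.12 CPM (NSC-like) and 7.63 CPM (AS-like). A start farther downstream given by RefSeq, added after seeing the data, held 49.4 and 52.8. The P5 peaks span 1088 bp at the principal start and 4255 bp at the downstream one, and per kb of peak the values were 5.63 and 7.01 CPM against 11.6 and 12.4.

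Among the other genes, Cdk6 was higher in NSC-like than in AS-like cells at every age, with ratios of 1.42 (1.32 to 1.53), 1.41 (1.24 to 1.6) and 1.48 (1.19 to 1.86). Cdk4 was higher at P5 alone, at 1.27 (1.16 to 1.39), and its intervals at 12w and 24w included 1. Of the neural labels at P5 its peak was highest in IMN2-like cells, at 68.4 CPM against 52.4 for the S-phase label. Cdk4 RNA had the other order, at 685 against 1107 CPM. In all, 5 of the 8 genes were higher in NSC-like cells at P5, then 4 at 12w and 4 at 24w, and 1, 1 and 0 were lower, by intervals that exclude 1. At the start sites of all protein-coding genes with a peak and counts there, 29.7% at P5, then 12.4% at 12w and 9.10% at 24w were higher by this measure, and 15.5%, 18.2% and 13.7% were lower. An interval narrows with the counts in a peak, so these shares depend on depth. At P5, 3 of the 8 were higher with a label score of at least 0.7 in place of 0.5. Ccne2 stood at 81.3 CPM (S-phase label) against 45.2 (AS-like) at P5 and at 65.2 against 28.1 at 12w. At 24w the values were 44.1 and 35.5, a ratio of 1.24 (0.891 to 1.74) that includes 1. Its RNA stood at 50 CPM against 2.52 in these classes at P5. Ccne1 ranged only from 47.6 to 55.3 CPM over NSC-like, AS-like, IMN1-like, IMN2-like and S-phase labels at P5. Cdk2 was lowest in IMN2-like cells, the class with its lowest RNA level, at 22.7, 22.8 and 23.7 CPM at the 3 ages against 45.3, 38.3 and 39.6 in NSC-like cells.

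**Figure D3:**
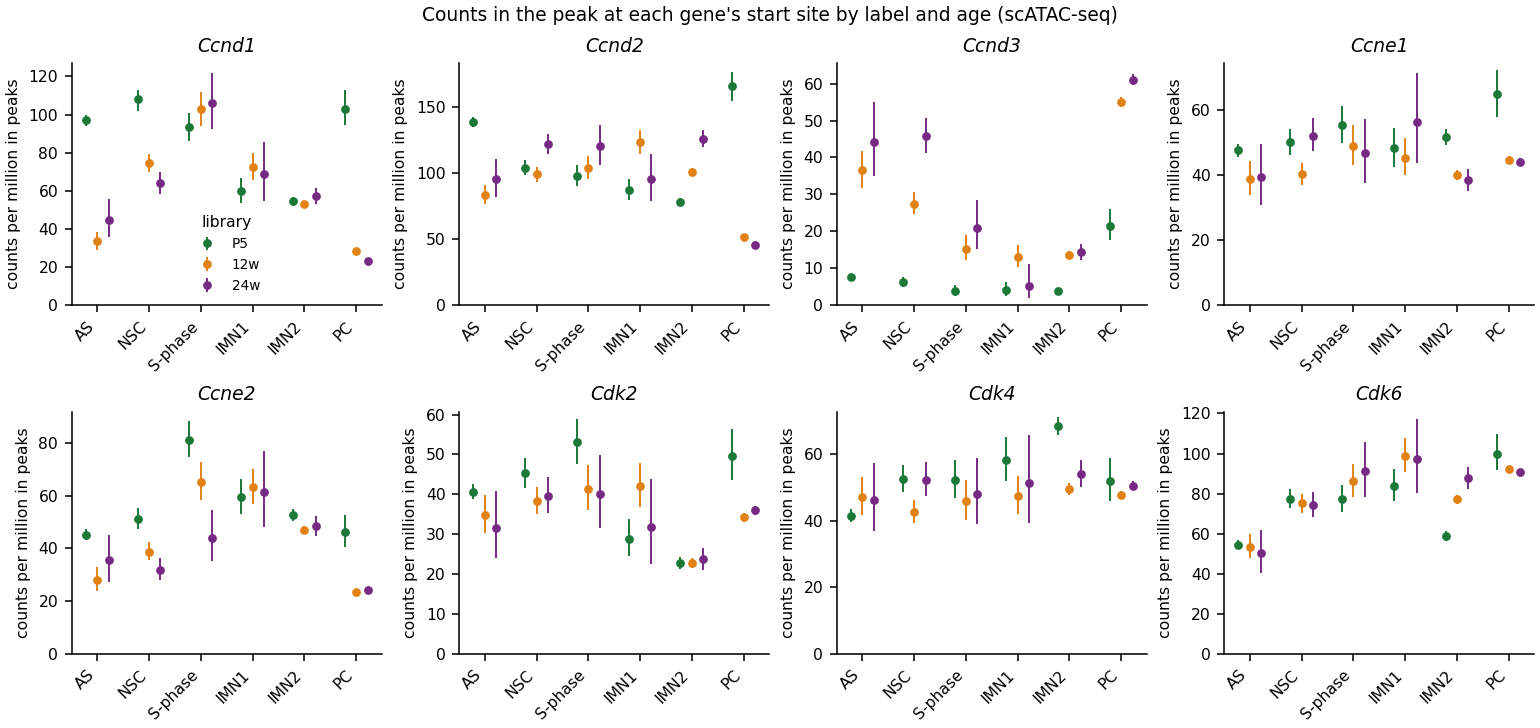
Counts (CPM) in the peak at each gene's start site, for 6 transferred labels and the 3 scATAC-seq libraries, with exact 95% Poisson intervals. Values are to be compared within a library because peak lengths differ, and at P5 Cdk2 lies at 22.7 in IMN2-like against 45.3 in NSC-like cells.

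Bulk RNA-seq of cultured NSCs addressed how the same genes stand after loss of Setd8. Of 6 libraries, 4 had transcripts-per-million (TPM) and entered the comparison. Their titles disagree with the column names the study gives for its own table of values. By those names the libraries titled Ctrl_3, Setd8KD_1 and Setd8KD_2 are controls and the library titled Setd8KD_3 is a knockdown. Setd8 itself had 154, 143 and 143 TPM in the first 3 and 36.4 TPM in the last, a log2 difference of -1.98 (SE 0.07, limma adjusted p = 1.1e-04), so its level goes against 2 of the titles. The groups below follow the column names, with 3 controls and 1 knockdown library, and the lone knockdown library is assumed to vary like the controls. Nothing states that the controls are separate cultures, so their spread may be technical. The stem cell genes Sox2 and Nes, at control means of 240 and 216 TPM, were expressed. The neuronal genes Dcx and Stmn2 had control means of 0.000124 and 0.000595 TPM, small values that stand for genes without reads and are not measured levels. Olig2, a gene of the oligodendrocyte lineage, had a control mean of 1291 TPM and fell in the knockdown library (log2 difference -0.22, limma adjusted p = 0.017). Prox1, a gene of the DG, was at 9.63 TPM.

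Per length, Ccnd1 was the most abundant of the 8 in culture, with a control mean of 1661 TPM ± 25.8 (SD, n = 3), followed by Cdk4 with 1273 ± 20.1 and Ccnd2 with 465 ± 21.4. Ccnd3, Cdk2, Ccne1 and Ccne2 followed with 108 ± 3.73, 90.9 ± 2.61, 76.4 ± 1.36 and 54.1 ± 6.2 TPM, and Cdk6 stood at 2.49 ± 0.259 TPM. No neighbours in this order had overlapping ranges over the controls. In the knockdown library 4 of the 8 genes fell and none rose at an adjusted p under 0.05 (limma on log2(TPM + 1), 12703 genes). Among all genes tested, 21.7% fell and 20% rose. In bulk RNA, fewer cells of a type and less RNA per cell cannot be told apart.

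Ccne2 fell the most. It had 59, 56.1 and 47.1 TPM in the controls and 24.7 TPM in the knockdown library. The log2 difference was -1.09 (SE 0.12, limma adjusted p = 0.001), a level 54.3% lower. With no filter on low values the call was lost (limma adjusted p = 0.077), and it held in the other fits with these groups. Ccne1 had 74.9, 77.6 and 76.8 TPM against 58.5, a log2 difference of -0.38 (SE 0.06, limma adjusted p = 0.0037). Cdk2 had 93.6, 90.7 and 88.4 TPM against 67.7, a log2 difference of -0.42 (SE 0.06, limma adjusted p = 0.0028). For these 3 genes, both E-type cyclins and their kinase, the knockdown value lay well below the range of the controls. Cdk4 had 1291, 1251 and 1276 TPM against 1136, a log2 difference of -0.16 (SE 0.05, limma adjusted p = 0.03). This call was lost when any 1 control library was left out (limma adjusted p = 0.051 without the library titled Ctrl_3, 0.072 without Setd8KD_1 and 0.056 without Setd8KD_2), and with no filter on low values (0.19).

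The D-type cyclins and Cdk6 did not pass the test. Ccnd1 had 1647, 1690 and 1645 TPM in the controls and 1548 in the knockdown library, a log2 difference of -0.10 (SE 0.05, limma adjusted p = 0.13). Ccnd2 had 449, 489 and 457 TPM against 451, inside the control range, a difference of -0.04 (SE 0.06, limma adjusted p = 0.61). Ccnd3 had 104, 108 and 111 TPM against 114, a difference of 0.09 (SE 0.06, limma adjusted p = 0.31). The value of Ccnd1 lay below the control range of 1645 to 1690 TPM, and that of Ccnd3 just above its own. Cdk6 had 2.25, 2.76 and 2.46 TPM against 2.94, above the control range, a difference of 0.18 (SE 0.17, limma adjusted p = 0.44). It rests on 49 to 64 reads per library, against 702 or more for each of the others.

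**Figure D4:**
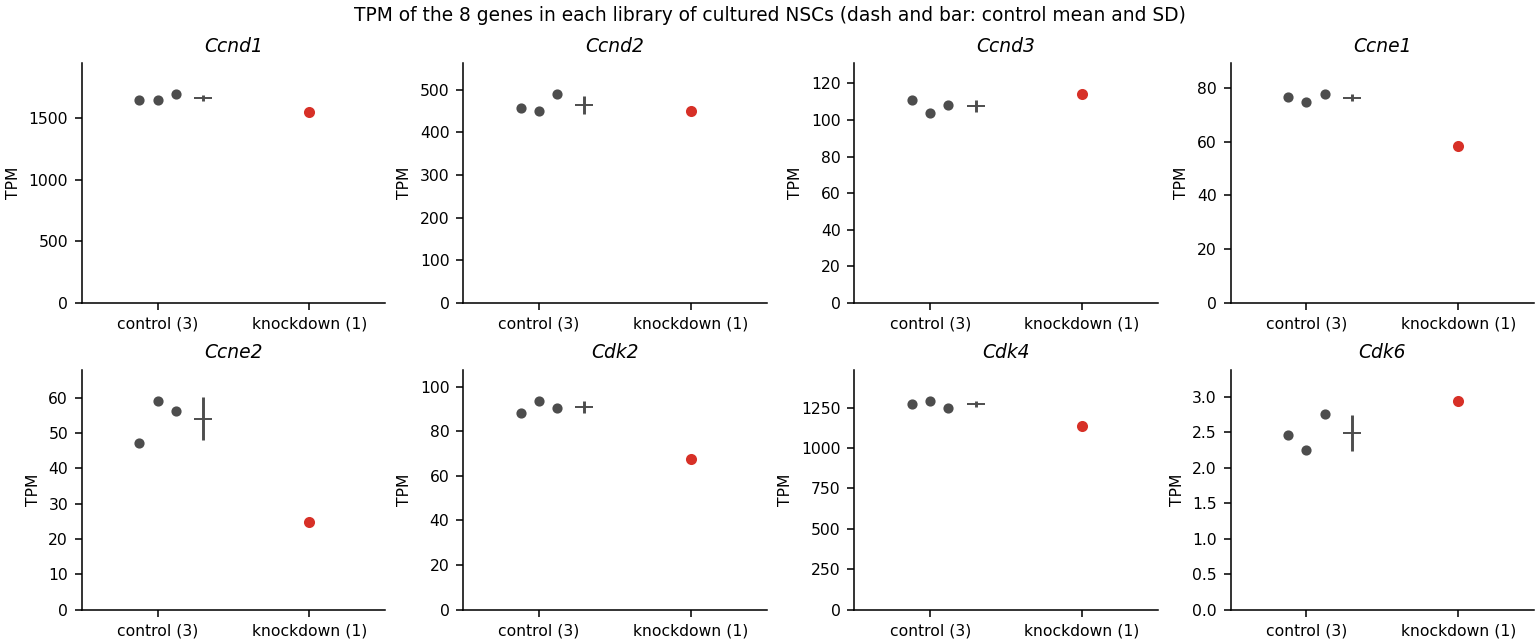
TPM of the 8 genes in each library of cultured NSCs, with grey points for the 3 control libraries, a dash and bar for their mean and SD, and a red point for the 1 knockdown library. Ccne2 lies at 24.7 TPM in the knockdown library against 47.1 to 59 in the controls, while Ccnd2, at 451, lies within 449 to 489.

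All 36 other pathway genes were tested, of which 15 fell and 3 rose, against 21.7% and 20% of all genes tested, with a median log2 difference of -0.22 against 0.00 over all genes tested. The falls with the smallest adjusted p were those of Ccna2, the S-phase and mitotic cyclin (290, 291 and 277 TPM in the controls against 129, log2 difference -1.14), Cdk1 (234, 236 and 240 against 109, -1.12), Cks1b, a cofactor of Skp2 and the kinases (282, 267 and 276 against 139, -0.98), and Ccnb1, the mitotic cyclin (101, 98.8 and 93.8 against 49.2, -0.98). Their limma adjusted p ranged from 1.1e-04 to 2.2e-04. The 3 that rose were the kinase inhibitor genes Cdkn1a (955, 951 and 933 TPM against 1461, log2 difference 0.63, limma adjusted p = 2.5e-04) and Cdkn2b (33.3, 36.5 and 35.2 against 68.6, 0.95, limma adjusted p = 3.7e-04), and Fbxw7, which marks cyclin E for breakdown (19.3, 19.5 and 17.8 against 28.3, 0.56, limma adjusted p = 0.0038). Of the 7 kinase inhibitors 2 rose and 1 fell, Cdkn2d, named after its values were seen, at a log2 difference of -0.37 (limma adjusted p = 0.009). Of the 10 E2F and DP factors 5 fell and none rose. Of 6 stem cell genes used to check the cells 4 fell, beside the same shares of all genes, and of 4 neuronal genes the 1 with enough TPM to be tested rose. This neuronal gene, Tubb3, rose from 0.987, 1.28 and 1.49 TPM to 4.34 (limma adjusted p = 0.0039) and the stem cell gene Hes5, for example, fell from 28.1, 28.2 and 24 to 12.6 TPM (limma adjusted p = 9.0e-04), and their part in the results above was not tested.

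**Figure D5:**
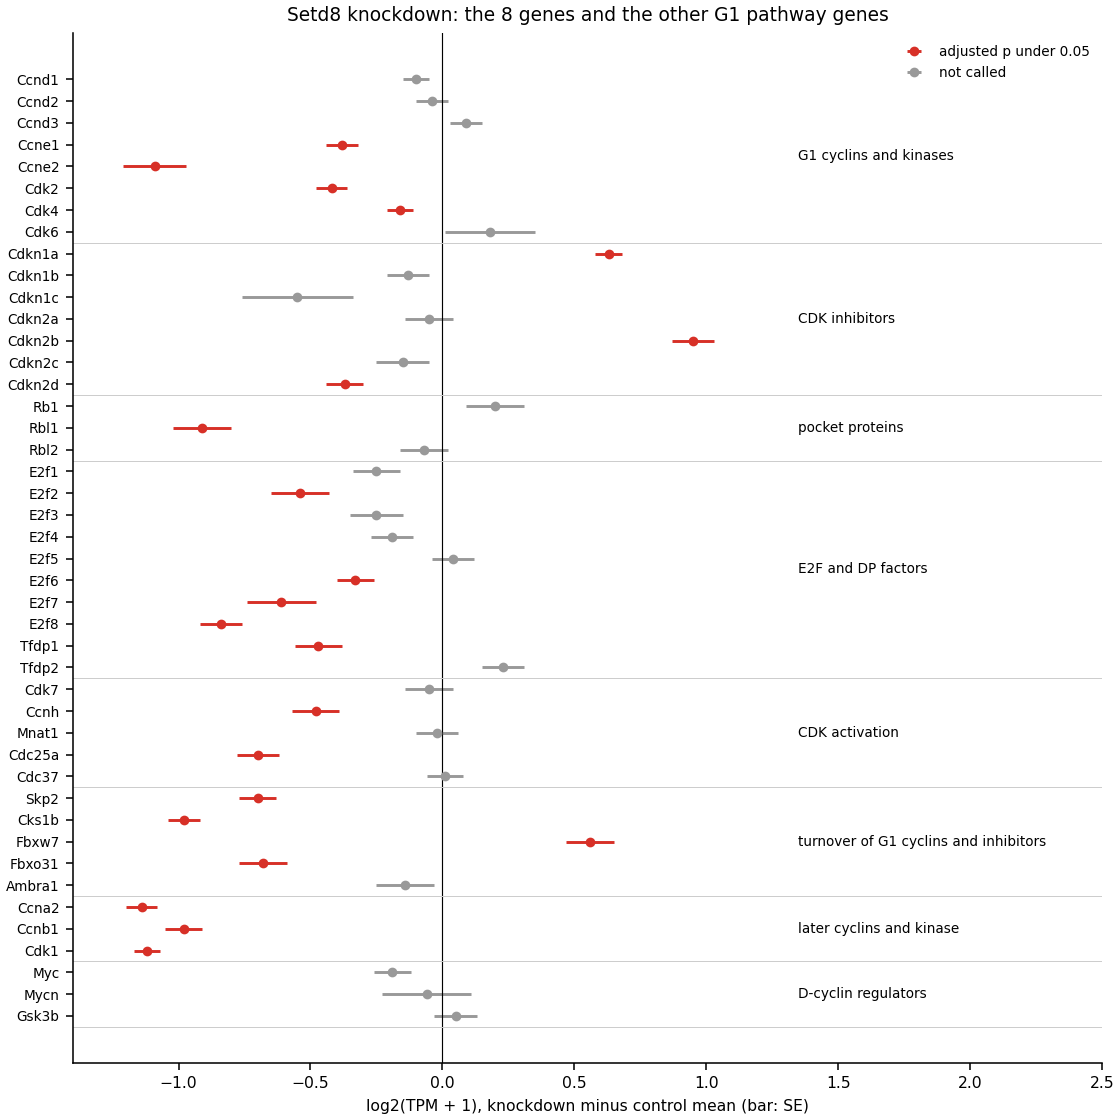
Log2(TPM + 1) in the knockdown library minus the control mean, with its SE, for the 8 genes and 36 other G1 pathway genes grouped by role, in red where the limma adjusted p is under 0.05. Among the 8, Ccne1, Ccne2, Cdk2 and Cdk4 are called and lie below 0, and Ccnd1, Ccnd2, Ccnd3 and Cdk6, at -0.10, -0.04, 0.09 and 0.18, are not called.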

How the data were processed

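The authors deposited UMI counts per gene and cell for scRNA-seq (Cell Ranger 2.2.0 per the submitters' notes), counts per peak and cell for scATAC-seq, and TPM per gene for bulk RNA-seq, for which the notes name Trimmomatic and STAR. H4K20me1 and bulk ATAC-seq files were not used here. Barcodes below 1000 UMIs or 500 genes, or with over 10% of UMIs from mitochondrial genes, were dropped, and doublets called by scrublet in scanpy 1.11.5 (6.81%, 1.5% and 0.107% of cells at P5, 12w and 24w) were removed. Cells were clustered in Seurat 5.3.0 (2000 variable genes, 30 dimensions, resolution 0.8) without the 8 genes and the pathway list, and a name needed a marker score of at least 0.5 and at least 3 raised markers. UMIs were summed within each class of a library, and exact intervals, at 95%, cover counting error only. scATAC-seq cells had over 3000 and at most 100000 counts, took labels with a score of at least 0.5 (LSI components 2 to 30), and peaks within 1 kb of a start site were summed.

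TPM values were tested by limma 3.58.1 on log2(TPM + 1) for genes with a mean of at least 1 TPM, with Benjamini-Hochberg adjustment over all genes, in R 4.3.3. Dividing the deposited TPM by the value of 1 read gave whole reads for 100% of values under 1000 reads (tolerance 0.02), 20040076 to 21493347 per library, and edgeR 4.0.16 on these reads called 6089 genes. On simulated data, limma recovered 67% of 200 genes changed by 1 on the log2 scale with 5 false calls among 12703 genes, and edgeR 94.5% with 8 among 13150. In both simulations the lone knockdown library varied like the controls by construction, so their false calls cannot examine that assumption. Smaller changes, such as that of Cdk4, were not simulated. The rule of size recovered 93% of 200 genes lowered 4-fold among 11180, with 51 other genes lower and 5 higher.

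The 8 genes and all lists were chosen with earlier results of these data known. The text names the 8 genes, at most 4 called pathway genes per direction by smallest adjusted p in the knockdown, at most 3 by UMIs with age, the 3 genes most like each of the 8, Setd8 and the markers.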

Additional observations from a re-analysis of the deposited data

How the results depend on the processing

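No paired analysis was possible because, by title, the libraries with TPM share only replicate number 3. With no filter on low values 2 of the 8 genes, Ccne1 and Cdk2, were called in the knockdown (4 as reported) and 2234 genes in all (5300 as reported). With libraries grouped by title, 1 against 3, limma called 0 of the 8, 0 at an unadjusted p under 0.05 and 0 genes in all, and the log2 difference of Ccnd2 was 0.05 in place of -0.04. edgeR on recovered reads, with the groups of the report, called 4 of the 8. Leaving out each control library in turn gave 3 to 3 of the 8, the lost one being Cdk4 each time, and 4026 to 5710 genes in all. In NSC-like cells, 1 gene met the rule of size at a clustering resolution of 0.4 and 4 met it at 1.5-fold, against 2. In NPC-like cells 2 met it after subtraction of free RNA, 2 after scaling to the median gene and 3 at 1.5-fold, against 1. Over all genes in NSC-like cells, scaling to the median gene gave 699 higher and 680 lower and subtraction of free RNA 700 and 812, against 788 and 607. In NPC-like cells a resolution of 0.4 gave 564 and 522, against 323 and 500. The Ccnd2 share in the S-phase cluster at 12w was 93.7% in thinned cells, against 94.9%, and 3 genes had more open chromatin in NSC-like than AS-like cells at P5 with a label score of at least 0.7, against 5. The causes were not tested. Of the age ratios of single genes in NSC-like and NPC-like cells, the only classes for which these were recomputed under each alternative, 231 stayed within counting error of the reported value and 9 did not. This is a weak check, since several intervals are wide, such as 0.0136 to 3.31 for Ccne1 in NSC-like cells at 24w. The alternatives also share many UMIs with the reported values. At 24w several levels rest on 4 UMIs or fewer, such as those of Ccnd1 and Cdk6 in AS-like cells and of the E-type cyclins in NSC-like cells.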
